A study of Saccharomyces cerevisiae with 6 samples.

Results

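The alcohol and aldehyde dehydrogenase genes of budding yeast, Saccharomyces cerevisiae, were followed in cells treated with zymolyase, a preparation of glucanase and other enzymes that dissolves yeast walls. The group holds 10 genes, ADH1 to ADH5 and ALD2 to ALD6, taken by name out of the 5349 genes tested. Each of them had a single probe set annotated to that gene alone, and all 10 probe sets passed the filter on low signals. The cultures carried the label BY4743, given as a MATa/α strain with the markers lys2Δ0, ura3Δ0, met15Δ0, leu2Δ0 and his3Δ1, and grew in YPD, a rich medium, at 25 °C for 2 days. The treated group received zymolyase at 30 U/ml and 10 min at 37 °C, while the control group, of the same strain grown alike, received no enzyme. Each group held 3 samples, each on its own Affymetrix array. No temperature is given for the control cells during this step, so the enzyme and a step to 37 °C cannot be told apart for any gene below. The labels also do not say that the replicates were separate cultures, so p-values measure the spread between these samples only.

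Yeast ferments sugar by decarboxylating pyruvate to acetaldehyde, which alcohol dehydrogenases (the ADH genes) reduce to ethanol with NADH. Aldehyde dehydrogenases (the ALD genes) oxidise acetaldehyde to acetate instead, which feeds cytosolic acetyl-CoA and, through the NADP-dependent enzymes, supplies NADPH. When sugar runs out, the flow reverses, and cells take up ethanol and oxidise it through acetaldehyde and acetate. Several of these genes are therefore textbook cases of glucose repression or of stress induction, while others are always on.

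All values are MAS5 signals in intensity units as the authors deposited them, scaled to a common mean, which hides any change in the total amount of messenger RNA in a cell. Arrays of the same group had log2 signals correlated at 0.985 to 0.987, and arrays of different groups at 0.938 to 0.947. Probe sets taken to belong to a second species on this array gave the background, and their 99th percentile lay between 21.0 and 31.4 per array. The mating type genes went against the label of an a/α diploid. On the control arrays the α-type receptor gene STE3 had signals of 2932 to 3094 and the a-type receptor gene STE2 35.9 to 57.1, and HO and RME1, which an a/α diploid represses, had at least 1142 and 1894.

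With zymolyase the signals of the ALD genes were higher, while among the ADH genes those of ADH4 and ADH5 were lower and the others higher. ALD4, ALD3 and ALD6 rose 3.31-fold, 3.01-fold and 2.87-fold, and ALD2 rose 1.57-fold. ADH5 fell to 0.643 and ADH4 to 0.727 of the control signal. ADH1 and ADH3, the fermentative and the mitochondrial alcohol dehydrogenase, were 1.13-fold higher each, and ALD5 1.16-fold. ADH2 was close to background. As RNA came from whole cell populations, fewer expressing cells and less RNA in each cell cannot be told apart.

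Counted by the limma test at an adjusted p of 0.05, 8 of the 10 genes were higher, 2 were lower and 0 did not pass. In the same test 71.5% of all 5394 tested probe sets passed, 32.6% higher and 38.9% lower. At least 2-fold rises were found for 3 of the 10 genes and for 8.06% of all tested probe sets, and at least 2-fold falls for 0 of the 10 and 2.21% of all. The groups did not overlap for 10 of 10 genes, against 73.3% of all probe sets. Since most probe sets passed, the count alone is no result about these genes, and their sizes of change are given gene by gene. By class, 5 of 5 ALD genes and 3 of 5 ADH genes were higher. The median log2 fold change was 1.52 for the ALD genes, 0.17 for the ADH genes and -0.08 for all tested probe sets. Over 16 alternative settings 6 of the 10 calls held throughout, those of ALD2, ALD3, ALD4, ALD6, ADH4 and ADH5, and the other 4 were lost under some of them.

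**Figure D1:**
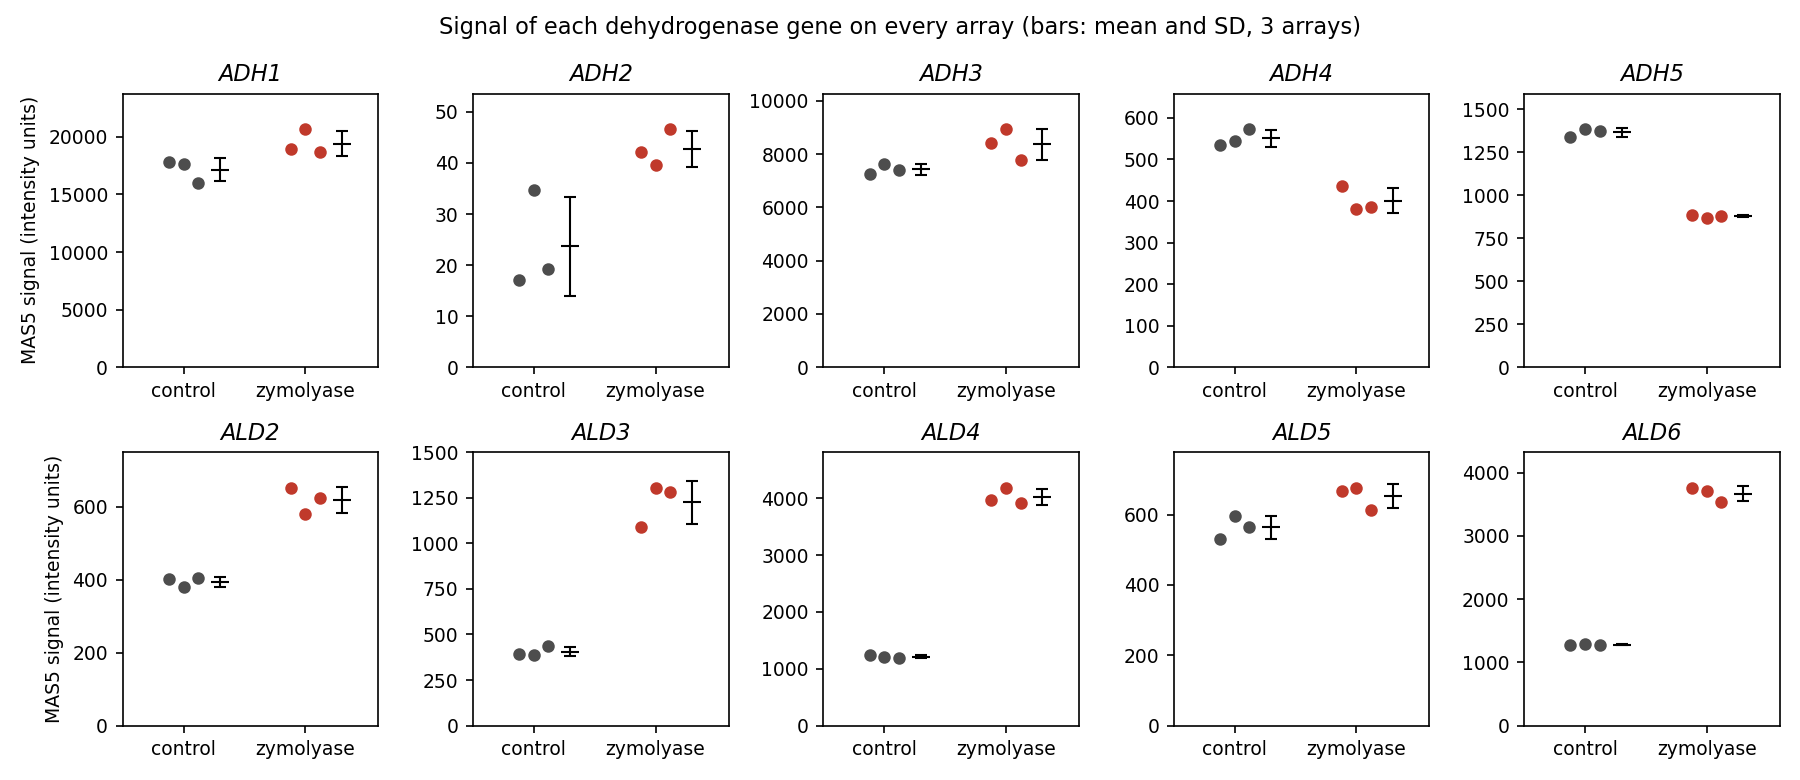
MAS5 signal in intensity units of each of the 10 genes on the 3 control and the 3 zymolyase arrays, with the mean and SD beside the points; each panel has its own axis, which starts at 0. ALD3, ALD4 and ALD6 were well separated between groups, ADH1, ADH3 and ALD5 narrowly, and ADH4 and ADH5 were lower with zymolyase.

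ALD6 encodes the cytosolic, NADP-dependent enzyme that makes most acetate during growth on glucose. Its signals were 1279, 1289 and 1270 in the control and 3763, 3715 and 3529 with zymolyase. The replicates lay close together, and the lowest treated array was far above the highest control array. This gave a log2 fold change of 1.52 ± 0.05 (SE, n = 3 per group; adjusted p = 3.0e-10 by limma), larger than that of 98.1% of all tested probe sets.

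ALD4 encodes the main mitochondrial aldehyde dehydrogenase, which is repressed by glucose and used for growth on ethanol. Its signals were 1250, 1208 and 1189 in the control and 3965, 4184 and 3913 with zymolyase. This was the widest separation in the group relative to its starting signal. The log2 fold change of 1.73 ± 0.05 (SE, n = 3 per group; adjusted p = 3.0e-10 by limma) exceeded that of 99.1% of all tested probe sets.

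ALD5 encodes the other mitochondrial isozyme, a minor enzyme that is not repressed by glucose. Its signals were 532, 596 and 564 in the control and 668, 677 and 613 with zymolyase. The highest control array and the lowest treated array were only 17.2 units apart. Its log2 fold change of 0.21 had a 95% interval from 0.05 to 0.37 (adjusted p = 0.019 by limma). The call was lost in 5 of 16 settings, where the adjusted p was 0.070 without control replicate 1, 0.059 without zymolyase replicate 1, 0.069 without zymolyase replicate 2, 0.062 with median centring and 0.62 with the gene length trend removed.

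ALD2 and ALD3 encode closely related cytosolic enzymes that use NAD, respond to stress through the activators Msn2 and Msn4, and make β-alanine for coenzyme A from 3-aminopropanal. The genes are neighbours on their chromosome by their order in RefSeq assembly R64. ALD2 had signals of 400, 379 and 404 in the control and 652, 581 and 624 with zymolyase. ALD3 had signals of 395, 387 and 436 in the control and 1090, 1305 and 1283 with zymolyase. The arrays of both groups were apart for either gene, with the wider gap for ALD3. The log2 fold changes were 0.65 ± 0.07 for ALD2 (SE; adjusted p = 4.7e-06) and 1.59 ± 0.08 for ALD3 (SE; adjusted p = 4.9e-09), by limma with 3 arrays per group. Transcripts this alike can reach each other's probes, and how much of either signal came from the other gene was not tested.

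ADH1 encodes the main cytosolic enzyme that makes ethanol, a glycolytic enzyme in its regulation, driven by the activators Rap1 and Gcr1. Its signals were 17828, 17628 and 16021 in the control and 18946, 20671 and 18654 with zymolyase. All treated arrays were above all control arrays, by a small margin for signals of this size. Its log2 fold change of 0.18 had a 95% interval from 0.04 to 0.32 (adjusted p = 0.022 by limma). The call was lost without control replicate 3 (0.12) and without zymolyase replicate 2 (0.080), with median centring (0.11), and when the spread model had no intensity trend (0.062), given as adjusted p.

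ADH3 encodes the mitochondrial isozyme, which takes part in a shuttle of ethanol and acetaldehyde that moves reducing power across the inner membrane. Its signals were 7237, 7625 and 7406 in the control and 8397, 8933 and 7762 with zymolyase. The lowest treated array exceeded the highest control array by 136 units, less than the SD of 195 among the control arrays. The log2 fold change was 0.17, with a 95% interval from 0.04 to 0.30 (adjusted p = 0.021 by limma). The adjusted p was 0.069 without control replicate 1, 0.054 without control replicate 3, 0.092 without zymolyase replicate 2, 0.107 with median centring and 0.064 without an intensity trend.

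ADH2 encodes the cytosolic enzyme that oxidises ethanol, the classic glucose-repressed gene that the activator Adr1 turns on when glucose is gone. Its signals were 17.1, 34.8 and 19.2 in the control and 42.2, 39.6 and 46.6 with zymolyase. On 2 of 3 control arrays it was below the second-species 99th percentile of that array, and on 0 of 3 treated arrays. The arrays did not overlap, but control replicate 2 was nearer to the treated arrays than to its own group. With the dim arrays set to that percentile, the gene was 1.65-fold higher. This value leaves out the spread between arrays, so it is not a lower limit of the change. The log2 fold change as measured was 0.93 ± 0.35 (SE; adjusted p = 0.031 by limma), and 0.34 with 50 added to every signal. The adjusted p was 0.090 without control replicate 1, 0.080 without control replicate 3, 0.064 without zymolyase replicate 1, 0.086 without zymolyase replicate 3 and 0.061 with quantile normalization, and without control replicate 2 the log2 fold change was 1.24. ADH1 and ADH2 are close relatives, and how much of the ADH2 signal came from ADH1 transcripts was not tested.

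ADH5 encodes a minor cytosolic isozyme that arose with ADH1 in the genome duplication of yeast. Its signals were 1338, 1384 and 1373 in the control and 884, 870 and 880 with zymolyase. The spread within each group was narrow, and every treated array was far below every control array. This gave a log2 fold change of -0.64 ± 0.05 (SE, n = 3 per group; adjusted p = 3.3e-07 by limma), and 13.5% of all tested probe sets had a lower one.

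ADH4 encodes an alcohol dehydrogenase of a separate, iron-type family unrelated in sequence to the other isozymes, and it is induced by the activator Zap1 when zinc is scarce. Its signals were 535, 544 and 573 in the control and 436, 381 and 386 with zymolyase. Treated arrays were lower throughout, with zymolyase replicate 1 nearest to the control. Here the log2 fold change was -0.46 ± 0.08 (SE, n = 3 per group; adjusted p = 0.00016 by limma), and 23.7% of all tested probe sets had a lower one.

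**Figure D2:**
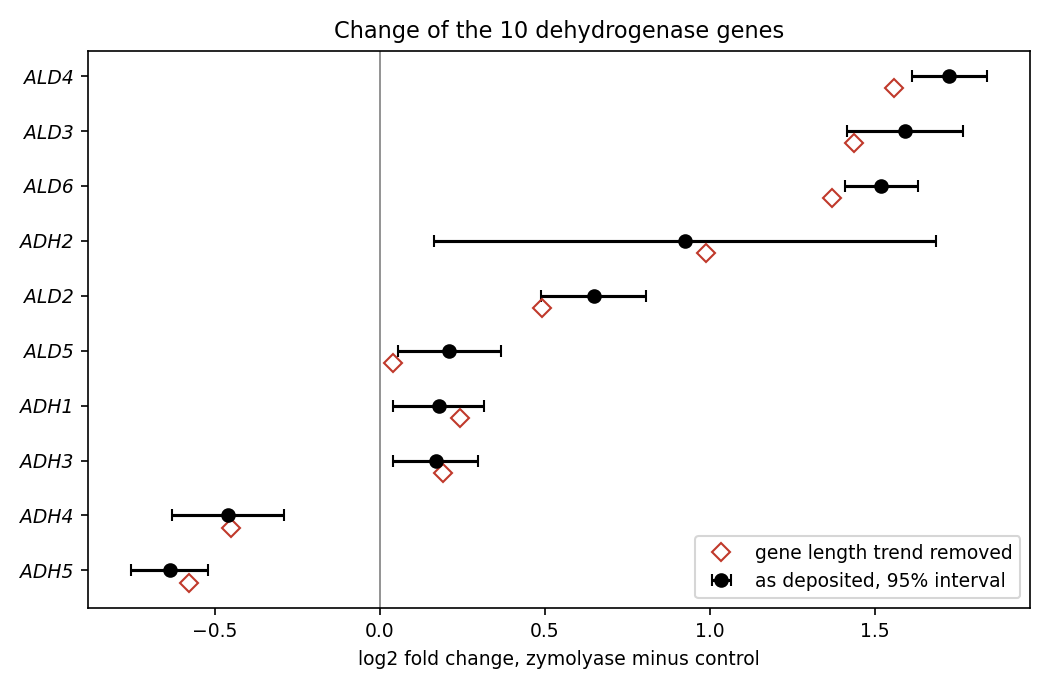
Log2 fold change (zymolyase minus control) of the 10 genes, with the 95% interval of the limma fit from 3 arrays per group (black), and the value after the gene length trend was removed (red diamonds). ALD4, ALD3 and ALD6 lie between 1.52 and 1.73 and stay above 1.36 with the trend removed, while ALD5 moves from 0.21 to 0.04.

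The change moved with gene length on these arrays. Over all tested probe sets the log2 fold change rose by 0.21 for each doubling of the coding length. The 5 ALD genes have coding lengths of 1503 to 1563 nt and the 5 ADH genes of 1047 to 1149 nt, so that both classes sit at different points of this trend. Among the 132 other probe sets within the ALD length range, 42.4% were called higher and the median was 0.10, with the 10th and 90th percentiles at -0.49 and 1.05. Among the 286 others within the ADH range, 28.7% were higher and 42.0% lower, the median was -0.14 and the same percentiles were -0.65 and 0.93. ALD3, ALD4 and ALD6 lay above the upper percentile of their range, and ALD2 and ALD5 inside it. ADH1, ADH3, ADH4 and ADH5 lay within theirs, ADH5 close to its lower end, and ADH2 is not placed because its control signal was at background.

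With the trend removed, the log2 fold changes were 1.56 for ALD4, 1.44 for ALD3, 1.37 for ALD6 and 0.49 for ALD2, and those of ADH4 and ADH5 were -0.45 and -0.58, all past the threshold. ADH1 then had 0.24, ADH3 0.19 and ADH2 0.99. Signal ratios that depend on RNA quality were also compared between the groups. The ratio of 3' to 5' signal of the ACT1 control probe sets was 1.86 to 2.19 on the control arrays and 2.33 to 2.54 on the treated arrays (two-sided exact permutation test, p = 0.1, the smallest 3 against 3 arrays can give). For 6 of 8 such control genes every treated array had the higher ratio, and for 0 of 8 the lower. Among all tested probe sets, the signals of 73.3% did not overlap between groups in either direction, so this count alone is no result. For TDH1, among the 6, the groups were barely apart, at 1.115 to 1.176 in the control and 1.179 to 1.318 with zymolyase. SRB4, among the 6 as well, had the largest difference, at 6.15 to 6.78 in the control and 11.2 to 30.5 with zymolyase. For EAF5 and WBP1 the groups overlapped. URA3 is also among the 6, although the label gives the strain as ura3Δ0, and what its control probe sets measured was not tested. The part of RNA quality in the changes above was not tested.

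**Figure D3:**
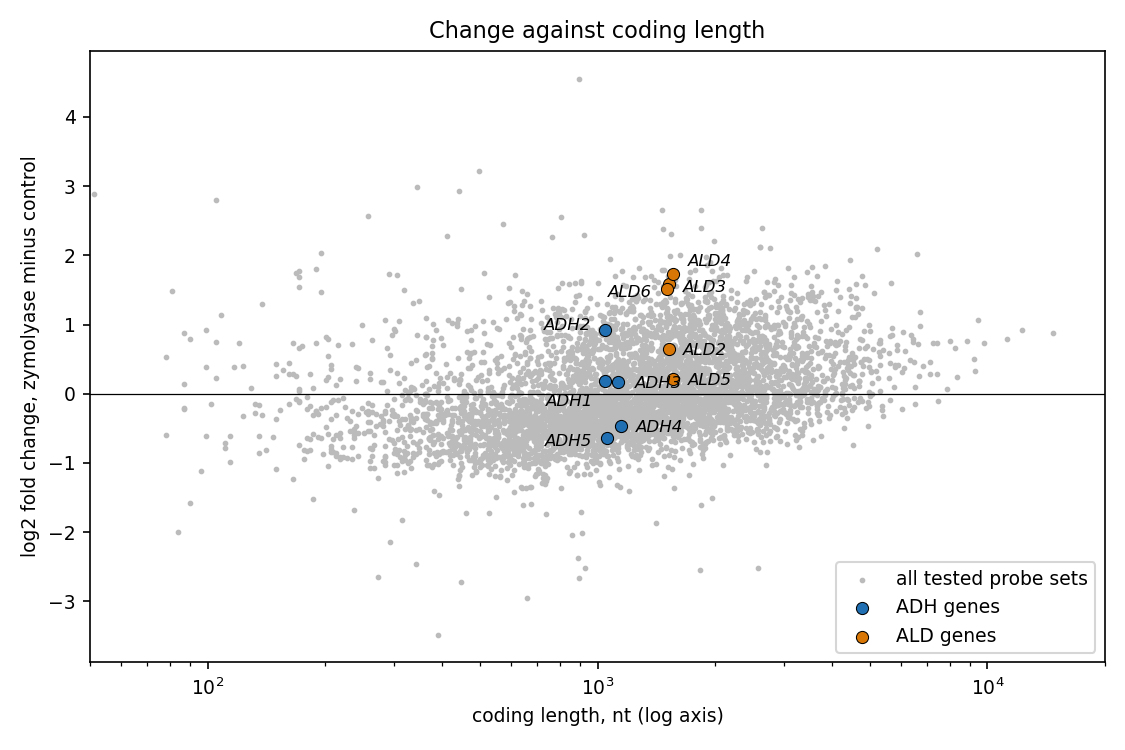
Log2 fold change (zymolyase minus control) against coding length in nt on a log axis, for all tested probe sets (grey), the ADH genes (blue) and the ALD genes (orange). ALD3, ALD4 and ALD6 lie near the top of the cloud at their length, and ADH4 and ADH5 in its lower part.

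Whether isozymes changed unequally was read from their log2 signal ratio on each array, which shows unequal change and not which gene is more abundant. Of 5 ratios compared, 3 had groups that did not overlap. Each of these had an exact permutation p of 0.1, the smallest this design allows (0.17 adjusted over the 5 ratios), so no ratio could pass 0.05. The ratio of ALD3 over ALD2 was -0.02, 0.03 and 0.11 in the control and 0.74, 1.17 and 1.04 with zymolyase, a difference of 0.94. The ratio was thus higher on every treated array than on every control array. How much of either signal came from the other gene was not tested. The ratio of ALD5 over ALD4 went from -1.23, -1.02 and -1.08 to -2.57, -2.63 and -2.67, a difference of -1.51 between the mitochondrial isozymes. This was the largest of the 5 differences. The ratio of ALD4 over ALD6 differed by only 0.21, from -0.03, -0.09 and -0.09 to 0.08, 0.17 and 0.15.

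Among the alcohol dehydrogenases, the ratio of ADH3 over ADH1 was -1.30, -1.21 and -1.11 in the control and -1.17, -1.21 and -1.27 with zymolyase. The groups overlapped, with a difference of -0.01 and a pooled SD of 0.07 (exact permutation p = 0.9, 0.9 adjusted over the 5 ratios). The difference was 0.04 without control replicate 3 and 0.02 without zymolyase replicate 3, so it had no stable direction. The ratio of ADH2 over ADH1 differed by 0.75 with a pooled SD of 0.40 and overlapping groups (exact permutation p = 0.2, 0.25 adjusted over the 5 ratios). With 50 added to every signal that difference was 0.16.

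**Figure D4:**
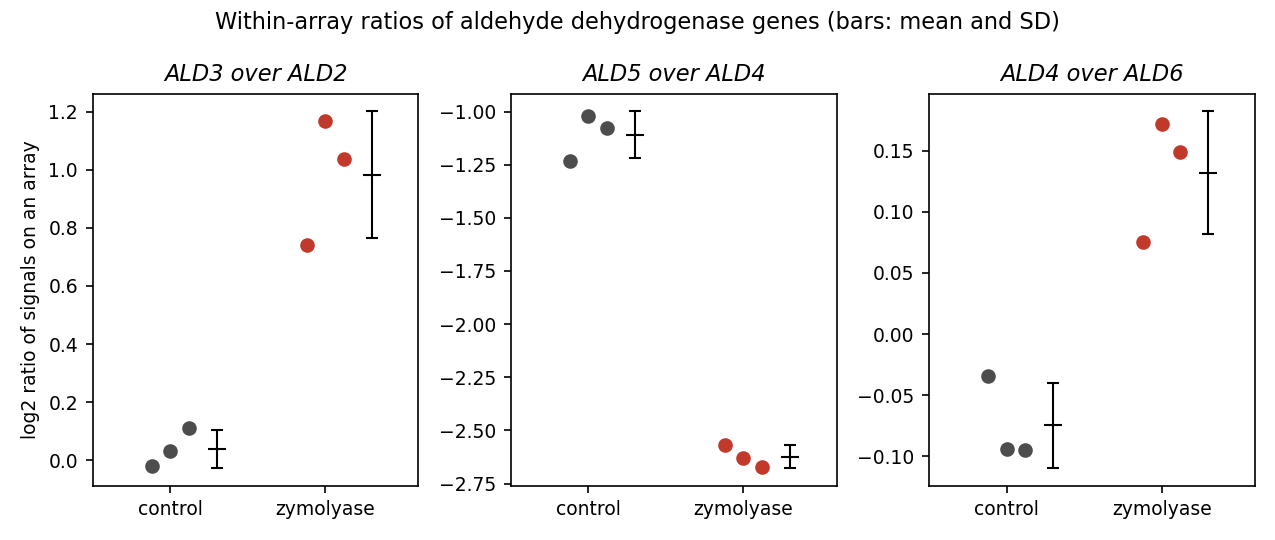
Log2 ratio of the signals of a pair of ALD genes on each array, in the 3 control and the 3 zymolyase arrays, with mean and SD; each panel has its own axis. The groups are apart in each panel, by 0.94 for ALD3 over ALD2, -1.51 for ALD5 over ALD4 and 0.21 for ALD4 over ALD6.

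The lists of related genes below are set against all tested probe sets, of which 32.6% were higher and 38.9% lower at a median of -0.08, and counts near these shares are no result about a list. Of 8 genes that lead from pyruvate to acetyl-CoA or to acetate esters, 4 rose, 2 fell and 2 did not pass, with a median log2 fold change of 0.21. ACH1, a mitochondrial enzyme that transfers coenzyme A to acetate, rose from 1327 ± 79.4 to 3334 ± 104 (SD, n = 3). PDC5, a pyruvate decarboxylase, rose from 342 ± 54.7 to 497 ± 21.6. PDC1, the main pyruvate decarboxylase, and ACS2, the acetyl-CoA synthetase used on glucose, were among the rises as well, with log2 fold changes of 0.26 and 0.31. Both lost the call with the length trend removed (adjusted p = 0.56 and 0.54), which left 2 rises, and PDC1 also without control replicate 3 (0.052). ACS1, the glucose-repressed acetyl-CoA synthetase, fell from 349 ± 22.9 to 249 ± 29.4, and ATF1, which makes acetate esters, from 337 ± 9.48 to 258 ± 7.65.

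Of 20 other oxidoreductases of alcohols, aldehydes and ketones tested, 6 rose, 7 fell and 7 did not pass, with a median log2 fold change of -0.02. These counts are close to the shares of 32.6% and 38.9% over all probe sets. BDH2, a relative of the butanediol dehydrogenase BDH1, rose from 1216 ± 36.1 to 3087 ± 157, and PUT2, which completes proline breakdown in mitochondria, from 631 ± 26.5 to 1241 ± 12.5. AAD14, a putative aryl-alcohol dehydrogenase, fell from 132 ± 26.7 to 68.0 ± 17.9. For AAD3, of the same family, the brightest probe set had a log2 fold change of 0.74 (adjusted p = 0.0022), but it can match several transcripts, and the other probe sets gave 0.27 and 0.03 (adjusted p = 0.56 and 0.92).

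Of 16 regulators known to act on ADH or ALD genes, 7 rose, 3 fell and 6 did not pass, with a median log2 fold change of 0.09. ADR1, the activator of ADH2, rose from 76.9 ± 7.73 to 147 ± 13.3, and RSF2, a zinc-finger protein linked to growth on glycerol, from 1493 ± 53.4 to 3421 ± 91.6. With the length trend removed the log2 fold change went from 0.94 to 0.53 for ADR1 and from 1.20 to 0.78 for RSF2, and both kept their calls. MIG1, the repressor that acts in glucose, rose from 307 ± 28.6 to 569 ± 45.7. ZAP1, the zinc-responsive activator, rose from 39.8 ± 3.49 to 71.4 ± 11.9, and its call was lost with the length trend removed (adjusted p = 0.056). The stress activators went in opposite directions, with log2 fold changes of 0.68 for MSN2 and -0.39 for MSN4, and GCR1 did not pass (-0.16, adjusted p = 0.053) except in 4 settings, among them the length trend removed (-0.51) and zymolyase replicate 3 left out (-0.21). Many regulators are long genes, and with the length trend removed the list had 5 rises, 5 falls and a median of -0.14.

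Of 17 tested targets of Adr1 or Cat8, genes controlled together with ADH2, 5 rose, 3 fell and 9 did not pass, with a median log2 fold change of 0.28, where 32.6% of all probe sets were higher and 38.9% lower. The rises included GUT1, the glycerol kinase gene, from 227 ± 10.8 to 552 ± 63.3, MLS1, a malate synthase of the glyoxylate cycle, from 39.7 ± 6.63 to 77.4 ± 9.76, and ATO2, a putative ammonium exporter, from 50.2 ± 3.15 to 88.1 ± 6.13. ICL2, a mitochondrial 2-methylisocitrate lyase, fell from 679 ± 11.0 to 376 ± 23.4. Of these 17 genes, 4 were below the second-species 99th percentile on at least 2 of 3 control arrays, as ADH2 was. The 5 rises were 3 without zymolyase replicate 1 and 3 with quantile normalization.

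Of 13 tested zinc-response genes that Zap1 controls, as it does ADH4, 5 rose, 4 fell and 4 did not pass, with a median log2 fold change of -0.11. These counts are near the 32.6% and 38.9% of all probe sets. ZRG8 rose from 127 ± 21.8 to 301 ± 25.6, and ZRT3, which releases zinc from the vacuole, from 967 ± 40.7 to 1324 ± 53.9. IZH2, a membrane protein of zinc homeostasis, fell from 2240 ± 147 to 1452 ± 35.9. ZRT1, the high-affinity zinc importer, did not pass (-0.15, adjusted p = 0.16). The 4 falls were 2 without control replicate 2. Removing the length trend gave a median of 0.15 and moved some of the calls to different genes. TSA1, a peroxiredoxin gene, went from -0.14 (adjusted p = 0.0499, a call lost in 9 of the other settings, among them control replicate 2 or 3 or zymolyase replicate 1 or 2 left out) to 0.16 (0.025), ZAP1 lost its rise, and ZRG17 was then called lower (-0.34, adjusted p = 0.021).

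The β-alanine made by Ald2 and Ald3 enters the pathway to coenzyme A. Of 9 genes from β-alanine and pantothenate to coenzyme A, 2 rose, 6 fell and 1 did not pass, with a median log2 fold change of -0.37, where 32.6% of all probe sets were higher and 38.9% lower. With the length trend removed 5 fell and the median was -0.23, as ECM31 lost its call (adjusted p = 0.114), which it also did without control replicate 2 (0.065). PAN5, which makes pantoate, fell from 2709 ± 63.1 to 1856 ± 58.9, and CAB5, the kinase that completes coenzyme A, from 1331 ± 82.5 to 871 ± 25.5. The log2 fold change of CAB5 was -0.61, and -0.36 with the length trend removed. PAN6, which joins pantoate to β-alanine, rose from 777 ± 50.4 to 1246 ± 52.5, and CAB3 from 223 ± 10.4 to 348 ± 16.8. FMS1, which makes the 3-aminopropanal that Ald2 and Ald3 oxidise, did not pass (log2 fold change 0.12, 95% interval from -0.01 to 0.26, adjusted p = 0.092).

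**Figure D5:**
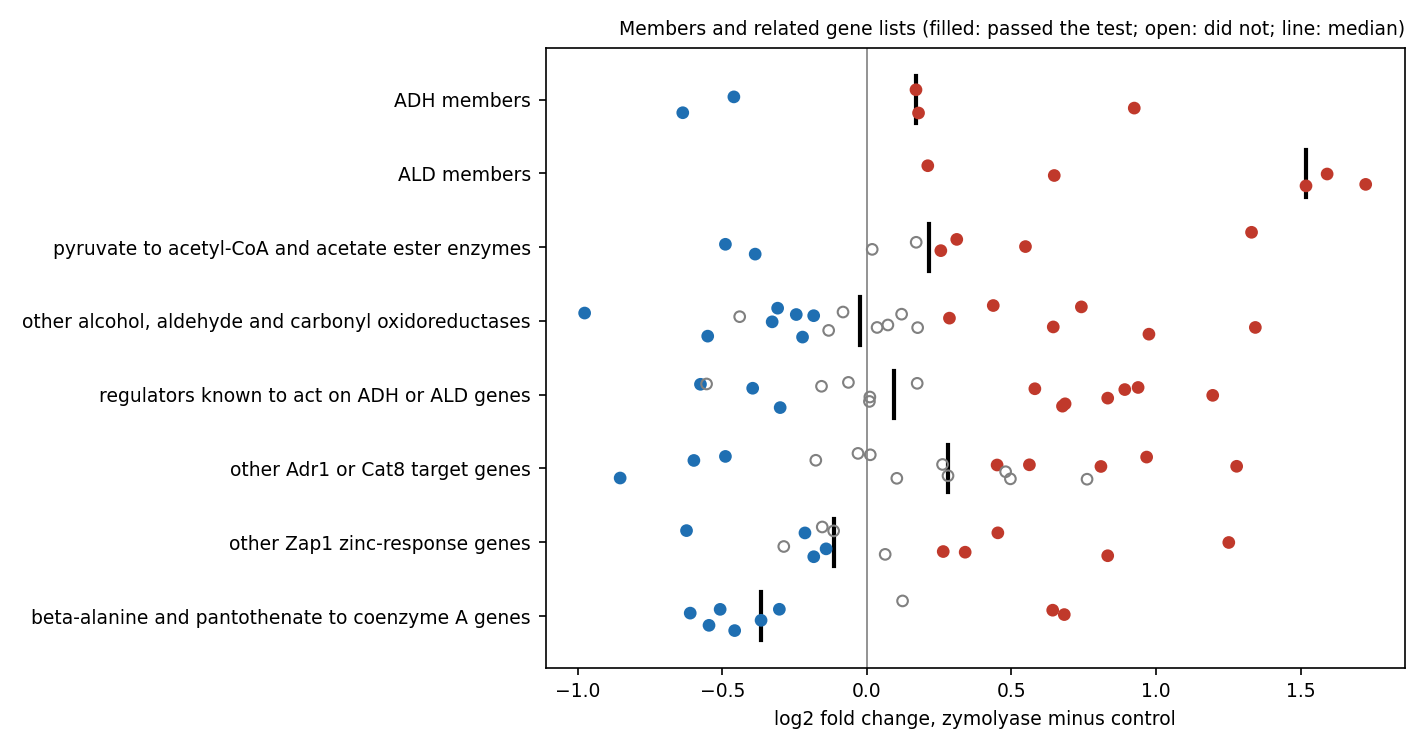
Log2 fold change (zymolyase minus control) of each tested gene in the ADH and ALD classes and in 6 lists of related genes; filled points passed the limma test (red higher, blue lower), open points did not, and the black line is the median. The ALD median of 1.52 lies far to the right, and the list medians lie between -0.37 and 0.28.

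The genes whose profile was most like that of a member were found by the Euclidean distance between log2 signals, each set against its own mean over the 6 arrays. For ALD4, the member with the largest rise, they were ZWF1, glucose-6-phosphate dehydrogenase, at a distance of 0.11, ABP1, an actin-binding protein, at 0.12, and TUP1, a general corepressor, at 0.13. Their log2 fold changes were 1.71, 1.79 and 1.71. For ADH5, the member with the largest fall, they were YKL069W at 0.03, PRS3, a phosphoribosyl pyrophosphate synthetase, at 0.05 and SSU72, a phosphatase of RNA polymerase II, at 0.05, with log2 fold changes of -0.64, -0.64 and -0.64. With 6 arrays in 2 groups, such likeness mostly restates the size of the change.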

How the data were processed

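The deposited values are linear signal intensities, 1 per probe set and array, which the authors made with MAS5 per the submitters' processing notes, from about 500 ng of total RNA labelled with a 3' in vitro transcription kit, per the labels' protocols. The version, scanner files and detection calls were not used here. The trimmed means of the 6 arrays ran from 500.41 to 500.43, so the deposited scaling was kept. Of 10928 probe sets, 5498 carried 1 S. cerevisiae gene by the platform's annotation and RefSeq R64. The 1747 listed with genes absent from R64 were taken as a second species. Probe sets with a mean signal above the 90th percentile of those (10.1) were tested, 5394 in all, and the brightest stood for a gene. Log2 signals entered a limma fit (version 3.58.1, R 4.3.3; intensity trend, no offset, Benjamini-Hochberg over all 5394). The procedure was tested on simulated data in which few probe sets changed, so that test does not cover data where most probe sets pass, as here. Ratios were compared by two-sided exact permutation tests over arrays. The length trend was removed per array by local regression on log2 coding length (span 0.5). The number of arrays limits the precision.

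The members and the 6 lists were chosen with earlier results of these data known. Of 87 list entries, 83 were tested. All members are named, with the 4 called genes of largest absolute log2 fold change per list (ZAP1 and ACS1 stand in more than 1 list), regulators mentioned as background, and the 3 genes most like the extreme members. PDC1, ACS2, ZRT1, TSA1, ZRG17, ECM31, FMS1 and BDH1 were added after their values were seen. Other settings were quantile normalization, an offset of 50, no filter, median centring, a 99th percentile filter, no intensity trend, a replicate block, the length trend removed, ambiguous probe sets left out, the mean over probe sets, and each array left out.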

Additional observations from a re-analysis of the deposited data

How the results depend on the processing

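No member changed direction under any of 16 settings, and 6 of 10 kept their calls; the 4 others and their adjusted p-values stand beside each gene. With each array left out in turn, 5 to 8 members were called higher and 2 lower each time, and 5 were called higher with median centring. Leaving out arrays gave 3 to 4 rises among the Adr1 or Cat8 targets (3 with quantile normalization) and 2 to 3 falls among the zinc-response genes. It gave differences from -0.055 to 0.038 for the ratio of ADH3 over ADH1, which is -0.01 with all arrays, positive at 0.038 and 0.015, and the ratio of ADH2 over ADH1 was 0.16 with an offset of 50. With the length trend removed, 2 genes from pyruvate to acetyl-CoA were higher and 5 regulators lower. The cause of these shifts was not tested. Of 23 named list genes, 21 kept direction and call throughout; ZAP1 and AAD3 did not. Of the genes added later, TSA1 turned to 0.16 and FMS1 to -0.034 with the length trend removed. All probe sets called numbered 3857, and 3624 to 3758 with an array left out. Deviations of same-numbered arrays correlated at 0.05, 0.07 and 0.02, so the numbers were not taken as pairs. With the replicate number as a block 3933 probe sets were called, 8 members higher and 2 lower, as without it. Dim signals limit ADH2, where 2 of 3 control arrays were below background.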

Other observations

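Of the 17 tested targets of Adr1 or Cat8, many of them repressed in glucose as ADH2 is, 12 had a mean control signal under 100, as had 11.5% of all tested genes. ICL1, the isocitrate lyase of the glyoxylate cycle, had 70.0 ± 6.83 in the control and 73.5 ± 25.1 with zymolyase (SD, n = 3). FBP1, the phosphatase of gluconeogenesis, was below the second-species 99th percentile on 2 of 3 arrays in either group. These genes were picked after their values were seen, and the labels do not give the glucose left in the medium at harvest.

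Of 14 tested genes next to a member by their order in RefSeq R64, and no members themselves, 4 rose, 6 fell and 4 did not pass, close to the 32.6% higher and 38.9% lower over all probe sets. MHF1, a histone-fold protein gene next to ADH1, had a log2 fold change of -2.64 beside 0.18 for ADH1, and was picked after its value was seen. Its value with the length trend removed is not given, and the part of gene length in this change was not tested.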
